A study of Mus musculus with 10 samples.

Results

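Gja1, Gjb2, Gjb5 and Gjb6, connexin genes of the epidermis, were followed on 10 Affymetrix Mouse Genome 430 2.0 arrays of mouse skin keratinocytes. The members were all probe sets that the platform annotation gives to exactly 1 of these symbols. That left 9 of the 45037 probe sets on the arrays and 4 of the 18193 genes with such a probe set: 6 probe sets for Gja1 and 1 each for Gjb2 (1423271_at), Gjb5 (1449204_at) and Gjb6 (1448397_at).

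The 10 arrays formed 4 groups. Cultured primary keratinocytes labelled RhoA-KO, genotype RhoA fl/fl K5 cre, gave 3 arrays, and cultured primary keratinocytes labelled Wildtype, genotype RhoA fl/+ K5 cre, gave 3. Keratinocytes taken straight from the epidermis gave 2 arrays labelled RhoA-KO and 2 labelled Wildtype, with those same genotypes. RhoA is a small GTPase that controls the actin cytoskeleton. All 4 groups carried the Cre recombinase under the keratin 5 promoter, which is active in basal keratinocytes, so the Wildtype cells were Cre carriers with 1 floxed allele. KO and Wildtype below refer to these labels. The labels number the arrays of a group as biological replicates but name no animals, pools or ages, so each p-value reflects only how far these particular arrays spread.

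Connexins are the subunits of gap junctions. Connexins assemble into hemichannels, which dock with those of a neighbouring cell to form channels for ions and small molecules. In the epidermis, Gja1 (connexin 43) is abundant in the basal and lower suprabasal layers, Gjb2 (connexin 26) and Gjb6 (connexin 30) are low between the hair follicles and are induced in wounded or hyperproliferative skin, and Gjb5 (connexin 31.1) belongs to the beta connexins of stratified epithelia.

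Signals are linear intensities. Changes are log2 differences, KO minus Wildtype, fitted with limma in cultured and fresh arrays separately, and adjusted p-values are Benjamini-Hochberg values over all probe sets tested in that condition. The ranges of cultured and fresh arrays differed: the median signal was 7.75 to 8 on cultured arrays and 64.1 to 64.8 on fresh arrays. Signal levels of the conditions were therefore set side by side only as percentile ranks within an array. The KO changes of the conditions were also subtracted from each other, which assumes that their log2 scales are comparable. The Rhoa probe set with the highest mean had signals of 8209, 7839 and 7628 in cultured KO arrays against 11249, 9879 and 9240 in cultured Wildtype arrays. In fresh cells it had 4398 and 4296 in KO arrays against 3526 and 4059 in Wildtype arrays, so the fresh signal was not lower under the KO label. Whether these probes lie in the deleted exons is not given in the sources used here, so Rhoa checks neither label, and the fresh directions below are those of the labels. In RNA from a mixture of cells, fewer cells of a type and less RNA per cell cannot be told apart.

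No connexin probe set passed an adjusted p of 0.05 in either condition. In culture 62 of 22682 probe sets passed (0.273%), and in fresh cells 0 of 22893 passed (0%) although 2953 had an unadjusted limma p under 0.05 (12.9%). Of the 9 connexin probe sets, 2 had an unadjusted p under 0.05 in culture, where 15.6% of all probe sets did, and 2 did in fresh cells, Gjb6 and a Gja1 probe set. KO and Wildtype arrays did not overlap for 2 of the 9 in culture, where 22.3% of all probe sets were without overlap, and for 3 of the 9 in fresh cells, where 46.9% were. Gjb6 is among the fresh ones and passed the filter there only through its KO arrays. The median change of the 4 genes was 0.70 in culture on the log2 scale, against -0.01 for all probe sets tested. The cultured changes were 2.16 for Gjb6, 1.41 for Gjb2, -0.01 for Gja1 and -0.38 for Gjb5, so the median describes no single gene. In fresh cells the median of the 4 genes was 0.87. That fresh value includes Gjb6, kept only through its KO arrays, so it is not set against all probe sets. Without fresh KO replicate 2 the fresh median was 0.40, and without fresh KO replicate 1 it was 1.39; with 1 array left out the median in culture ran from 0.52 to 1.02. The largest differences belonged to Gjb6 and Gjb2.

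Gjb6 had the smallest p of the connexins in culture. Its signals were 749, 446 and 550 in cultured KO arrays, against 112, 168 and 110 in cultured Wildtype arrays. Each KO array lay above each Wildtype array. The means were 582 ± 154 in KO cells and 130 ± 32.6 in Wildtype cells (SD, n = 3 each). The KO level was 4.46-fold the Wildtype level (95% interval 2.88 to 6.90; log2 change 2.16, SE 0.26; limma adjusted p = 0.0562), which did not pass. In all, 0.309% of the probe sets tested in culture had a log2 change as high or higher. In fresh cells the Gjb6 signals were 97.3 and 269 in KO arrays, against 54.8 and 52.2 in Wildtype arrays. These groups did not overlap either, but the KO arrays were far apart, and the log2 change was 1.60. Both fresh Wildtype arrays ranked Gjb6 below the array median, so it passed the fresh filter on low signals only through the KO arrays, and its fresh tests are given with no filter. Without the filter the limma adjusted p was 0.381, and the KO change in culture minus that in fresh cells was 0.56 (adjusted p = 0.708).

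Gjb2 had signals of 3296, 1656 and 1727 in cultured KO arrays, against 1816, 542 and 511 in cultured Wildtype arrays. The groups overlapped because Wildtype replicate 1 lay above KO replicates 2 and 3. The means were 2226 ± 927 in KO cells and 956 ± 744 in Wildtype cells (SD, n = 3 each), a 2.66-fold difference (95% interval 1.02 to 6.91; log2 change 1.41, SE 0.56; limma adjusted p = 0.311). Without Wildtype replicate 1 the log2 change was 2.01, with a limma adjusted p of 0.104. KO replicate 1 was likewise the highest KO array, and without it the log2 change was 1.09. In fresh cells the signals were 225 and 2211 in KO arrays, against 165 and 122 in Wildtype arrays. The KO arrays lay above the Wildtype arrays, KO replicate 2 alone by a wide margin. The fresh difference was 4.98-fold with a wide 95% interval of 0.835 to 29.7 (log2 change 2.32, SE 1.02; limma adjusted p = 0.422). Without fresh KO replicate 2 the log2 change was 0.67 (adjusted p = 0.377), and without fresh KO replicate 1 it was 3.97 (adjusted p = 0.00188). Each of these fits sets 1 KO array against 2 Wildtype arrays, which alone supply the spread, so it assumes that the lone array varies like them. The KO change in culture minus that in fresh cells was -0.91 on the log2 scale (SE 1.17; adjusted p = 0.710), where 1.95% of the 18773 probe sets tested in both conditions had a called difference.

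**Figure D1:**
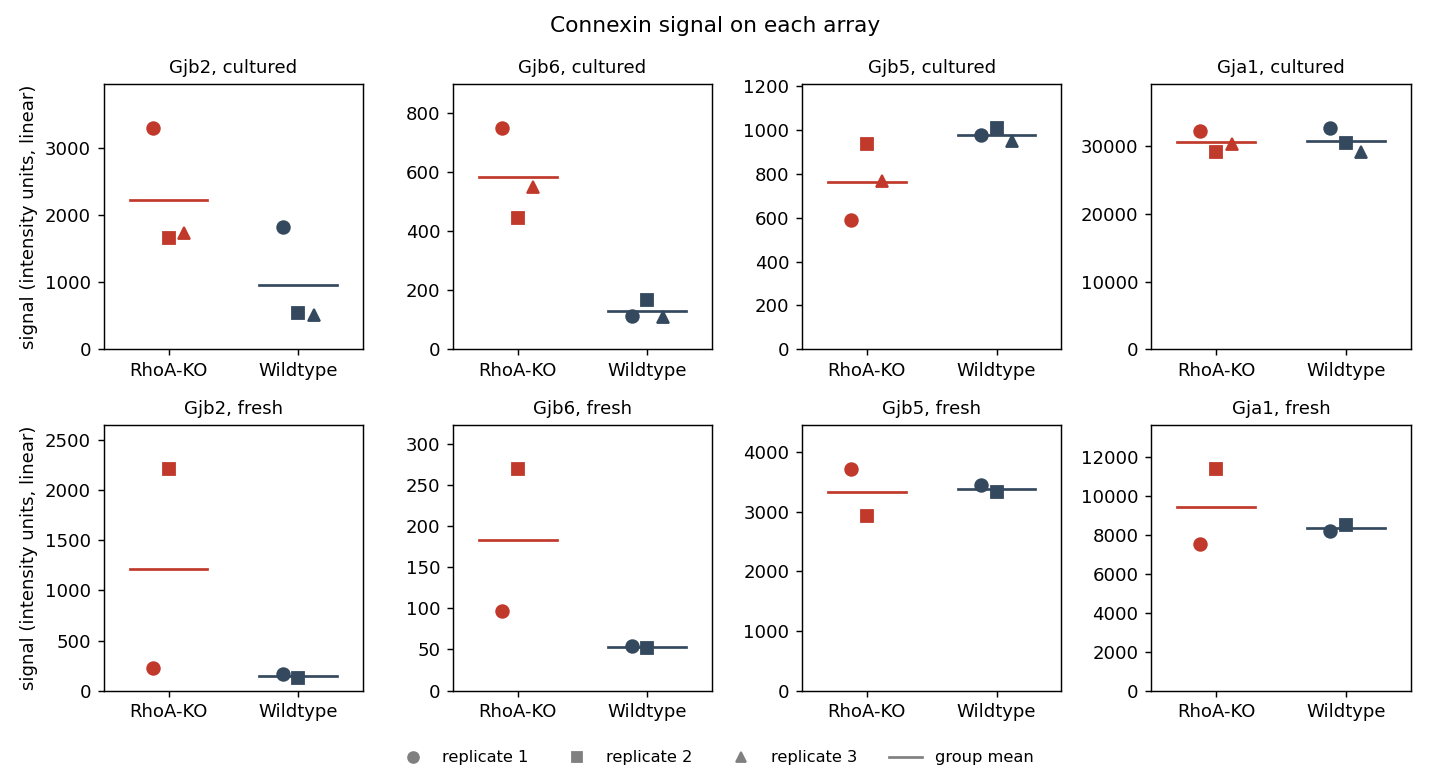
Signal (linear intensity) of the 4 connexin genes on each array, with cultured arrays in the upper row, fresh arrays in the lower row, and KO left of Wildtype; points are arrays, lines are group means, and Gja1 is its probe set with the highest mean. All 3 cultured KO points of Gjb6 lie above the Wildtype points, whereas Wildtype replicate 1 of Gjb2 lies among the KO points.

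Gjb2 and Gjb6 are neighbours: in the RefSeq gene order of GRCm38.p6 they stand next to each other on chromosome 14, between Gja3 and Cryl1. Gja3, a connexin of the lens, had signals of 7.22 to 7.69 in cultured KO arrays and 7.62 to 12.5 in cultured Wildtype arrays, near the array median. Cryl1, a crystallin-related dehydrogenase gene, differed by 0.67 on the log2 scale in culture (limma adjusted p = 0.615) and by -0.34 in fresh cells (adjusted p = 0.386). None of these neighbours, and neither Gjb2 nor Gjb6, was called. Gjb5 lies on chromosome 4 and Gja1 lies on chromosome 10.

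The bases just before the start sites of Gjb2, Gjb6 and Gjb5 are shown because the first pair lies side by side and had the largest positive KO differences, while the signal of Gjb5 was lower in cultured KO arrays than in cultured Wildtype arrays. Each is the 250 bases before the RefSeq gene start on GRCm38.p6, read 5′ to 3′ on the minus strand, the strand of the gene. Capitals mark matches on either strand to 4 motifs, and no match overlapped another. An AP-1 site was searched for as TGANTCA. The letters of a GC box were GGGCGG and those of a TATA box were read as TATAAA. The last motif, bound by TEAD factors, was spelled GGAATG.
Gjb2, chr14:57104703-57104952: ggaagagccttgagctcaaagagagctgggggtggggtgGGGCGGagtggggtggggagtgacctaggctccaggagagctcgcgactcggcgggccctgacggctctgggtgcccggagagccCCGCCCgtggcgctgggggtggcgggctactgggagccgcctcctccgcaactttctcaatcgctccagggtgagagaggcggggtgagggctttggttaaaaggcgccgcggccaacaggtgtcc
Gjb6, chr14:57133612-57133861: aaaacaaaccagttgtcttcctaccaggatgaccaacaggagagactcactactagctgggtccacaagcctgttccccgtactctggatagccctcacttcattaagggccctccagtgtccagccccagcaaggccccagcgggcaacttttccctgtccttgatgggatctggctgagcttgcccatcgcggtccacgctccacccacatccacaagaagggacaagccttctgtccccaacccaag
Gjb5, chr4:127358165-127358414: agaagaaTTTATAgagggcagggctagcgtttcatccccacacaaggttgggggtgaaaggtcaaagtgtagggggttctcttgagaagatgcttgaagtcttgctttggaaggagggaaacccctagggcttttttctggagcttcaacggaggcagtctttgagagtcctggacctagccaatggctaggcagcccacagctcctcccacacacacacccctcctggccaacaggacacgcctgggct
Among these windows, that of Gjb2 held 2 GC boxes, with first bases 211 and 126 bases before the start, and had a GC content of 69.2%. The Gjb6 window had a GC content of 56.8% and held no match. The Gjb5 window had a GC content of 54.4% and a TATA box on the opposite strand, first base 243 bases before the start. The neighbours thus did not share a match. In Gja1 an AP-1 match, TGAGTCA, began 19 bases before the start. Of 32851 RefSeq promoter windows of the same length, 32.7% held a GC box, 12.4% a TATA box, 12.6% a TEAD site and 6.75% an AP-1 site. A match describes letters only.

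Gjb5 differed in the other direction in culture. Its signals were 591, 937 and 765 in cultured KO arrays, against 977, 1008 and 948 in cultured Wildtype arrays. Every KO array lay below every Wildtype array, KO replicate 2 by a small margin. The means were 764 ± 173 in KO cells and 978 ± 30.1 in Wildtype cells (SD, n = 3 each), a fold of 0.768 (95% interval 0.573 to 1.03; log2 change -0.38, SE 0.17; limma adjusted p = 0.355). Fresh signals were 3713 and 2935 in KO arrays, against 3451 and 3326 in Wildtype arrays. The fresh groups overlapped, with a log2 change of -0.04 (SE 0.13; adjusted p = 0.921). The difference between culture and fresh cells was -0.34 (adjusted p = 0.412).

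Gja1 had signals of 32274, 29182 and 30384 in cultured KO arrays, against 32733, 30489 and 29183 in cultured Wildtype arrays, on its probe set with the highest mean, 1437992_x_at. The groups lay on each other. The means were 30613 ± 1559 in KO cells and 30802 ± 1795 in Wildtype cells (SD, n = 3 each). The log2 change was -0.01 (SE 0.06; limma adjusted p = 0.972), and the 95% interval of the fold ran from 0.896 to 1.10. In fresh cells this probe set had 7534 and 11391 in KO arrays, against 8198 and 8513 in Wildtype arrays. The KO arrays lay on both sides of the Wildtype arrays, and the log2 change was 0.15 (SE 0.19; adjusted p = 0.771; 95% interval of the fold 0.794 to 1.55). Without fresh KO replicate 1 it was 0.45 (adjusted p = 0.0397), and without fresh KO replicate 2 it was -0.15 (adjusted p = 0.570), again with 1 KO array and the spread of the Wildtype arrays alone.

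The 6 Gja1 probe sets differed from each other. In culture 5 of them had log2 changes of -0.08 to 0.03, and 1415801_at had one of -0.27 (limma adjusted p = 0.793). On 1415801_at the signals were 3327, 3265 and 2949 in cultured KO arrays against 7259, 3483 and 2230 in cultured Wildtype arrays, so Wildtype replicate 1 again stood apart. In fresh cells the changes ran from 0.11 to 0.46. The highest, on 1415801_at, had signals of 267 and 261 in KO arrays against 218 and 168 in Wildtype arrays, without overlap (limma adjusted p = 0.351). Probe set 1438973_x_at had 22.7 to 23.3 in cultured KO arrays and 22.5 to 22.8 in cultured Wildtype arrays, and its log2 change was 0.01. It is the Gja1 probe set that ranked lower on every cultured array than on every fresh array.

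**Figure D2:**
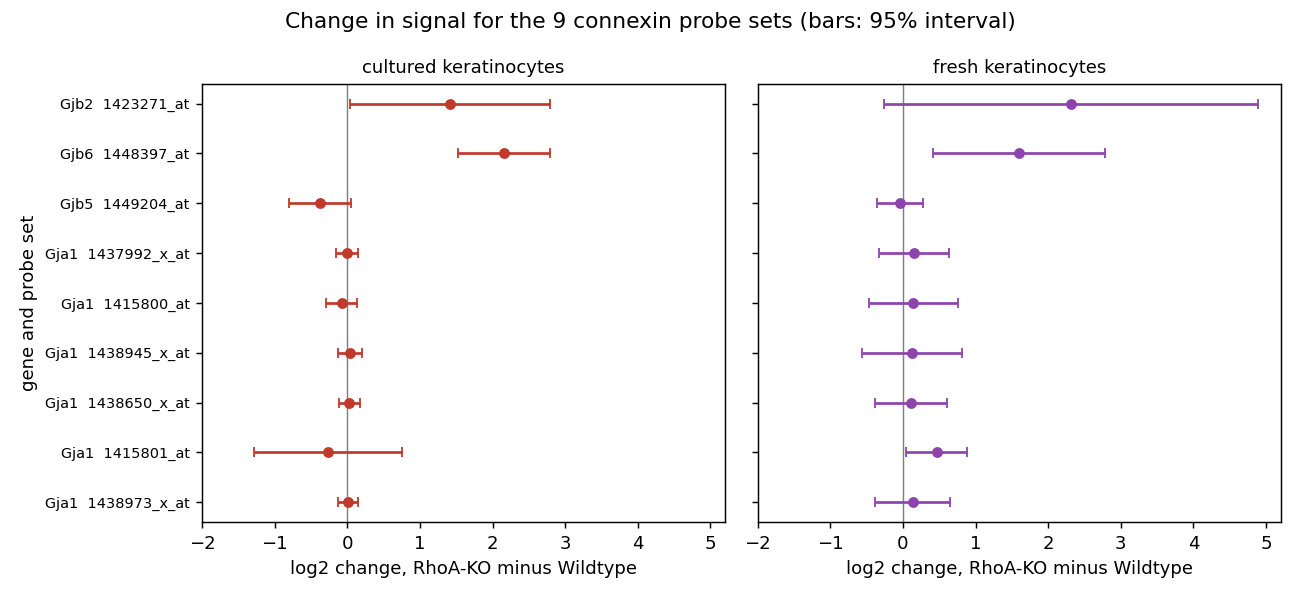
Log2 change (KO minus Wildtype) of each of the 9 connexin probe sets in cultured cells (left) and fresh cells (right); points are limma estimates and bars are 95% intervals. In culture the Gjb6 and Gjb2 bars lie above 0, and the fresh Gjb2 bar is the widest; the fresh Gjb6 bar describes a probe set that passed the filter only through its KO arrays.

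Ranks within an array placed the genes differently in culture and in fresh cells. Gjb5 ranked at 80.3% to 84.0% in cultured KO arrays and 84.0% to 84.8% in cultured Wildtype arrays, below its 96.8% to 97.6% in fresh KO arrays and 97.2% to 97.3% in fresh Wildtype arrays. The fresh groups overlapped each other, and every cultured array lay under them. Gjb6 ranked highest in cultured KO arrays, at 77.5% to 82.4%. Cultured Wildtype arrays, at 67.1% to 69.9%, and fresh KO arrays, at 58.1% to 72.9%, overlapped. Fresh Wildtype arrays, at 44.5% to 46.1%, were lowest. Gjb2 ranked at 88.5% to 92.9% in cultured KO arrays, 78.7% to 89.0% in cultured Wildtype arrays and 70.3% to 95.5% in fresh KO arrays, 3 groups that overlapped. Fresh Wildtype arrays lay below them, at 61.8% to 65.6%. Gja1 ranked at 99.09% or above on all 10 arrays on its probe set with the highest mean. There the fresh KO range spanned the other groups, and fresh Wildtype arrays lay just under both cultured groups. Of the 6 Gja1 probe sets, 4 ranked higher on every cultured array than on every fresh array, 1 ranked lower and 1 overlapped.

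**Figure D3:**
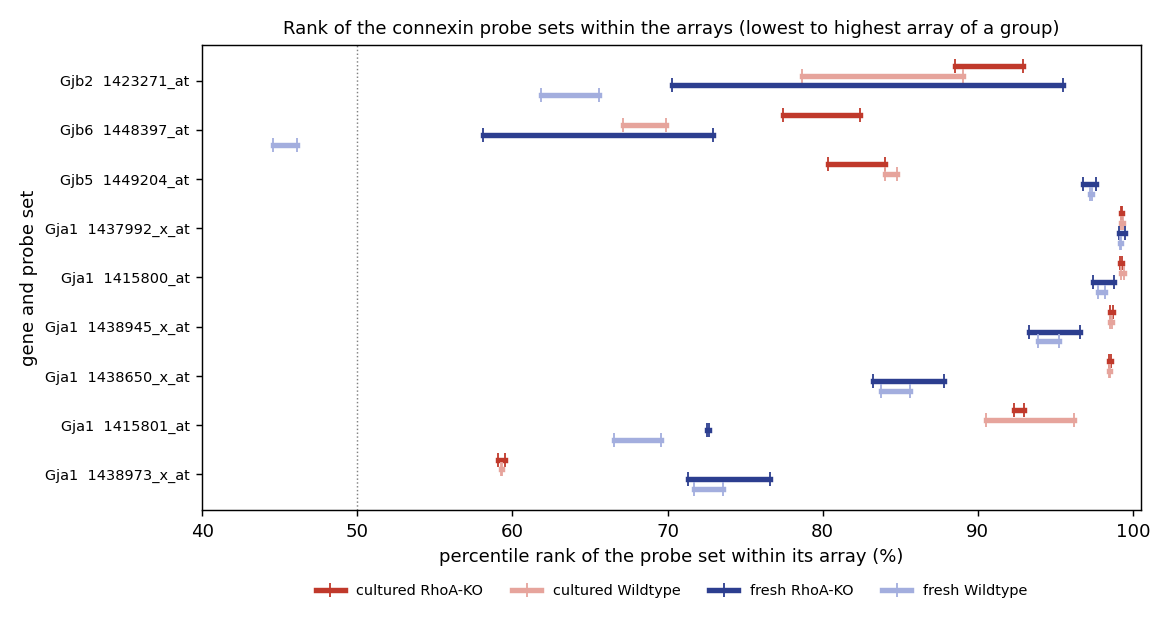
Percentile rank of each connexin probe set within its array, drawn from the lowest to the highest array of each group; the dotted line is the array median. Gjb5 lies lower in the cultured groups than in the fresh groups, and Gjb6 in fresh Wildtype arrays is the only range under the median.

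The rest of the family added few measured genes. Among the other connexins and pannexins, 13 genes were analysed. Apart from Panx1, the 12 genes had 19 probe sets, whose highest signal was 52.7 in culture and 61.7 in fresh cells. With the 4 members, 8 genes of the family were tested in culture (4 higher, 4 lower in KO cells, median log2 change 0.00), and 5 in fresh cells (4 higher, 1 lower). None was called by limma. At an unadjusted p under 0.05 there were 2 higher and 1 lower in culture, where 15.6% of all probe sets passed that p, and 1 higher in fresh cells, where 12.9% did. That 1 is Gjb6. Panx1, a pannexin that forms single-membrane channels for ATP, had 839, 949 and 926 in cultured KO arrays against 1122, 1038 and 1113 in cultured Wildtype arrays. These groups did not overlap, with a log2 change of -0.27 (limma adjusted p = 0.218). In fresh cells Panx1 had 851 and 878 in KO arrays against 773 and 746 in Wildtype arrays, a log2 change of 0.19 (adjusted p = 0.484). The opposite directions did not pass the test of their difference (-0.46; adjusted p = 0.0935). Gjc1 (connexin 45) had a log2 change of 0.92 in culture (adjusted p = 0.488), with 52.7 in KO replicate 1 and 10.5 to 13.6 on the other 5 cultured arrays. Gja3 had a log2 change of -0.30 (adjusted p = 0.492), and Gjc3, a glial connexin in the nervous system, had one of 0.01 (adjusted p = 0.913).

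Genes that traffic, phosphorylate or anchor gap junctions had changes in both directions. Of 39 such partners listed, 35 had a probe set and 32 were tested in each condition. In culture 17 were higher and 15 lower in KO cells, with a median log2 change of 0.01. In fresh cells 19 were higher and 13 lower, with a median of 0.01. None was called by limma. An unadjusted p under 0.05 was found for 6 of 32 in culture (18.8%) and 4 of 32 in fresh cells (12.5%), close to the 15.6% and 12.9% of all probe sets. Ezr, encoding ezrin, which ties membrane proteins to actin, had 16448 ± 815 in cultured KO cells and 13318 ± 874 in cultured Wildtype cells (SD, n = 3 each; log2 change 0.31; limma adjusted p = 0.139). Its fresh change was 0.25 (adjusted p = 0.306). Cav2, a caveolin of membrane pits, had 12364 ± 1858 in cultured KO cells and 16914 ± 1864 in cultured Wildtype cells (SD, n = 3 each; log2 change -0.46; limma adjusted p = 0.216), and had a log2 change of -0.30 in fresh cells (adjusted p = 0.347).

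The other partners named by p had the following values. Sqstm1, an autophagy receptor, had a log2 change of 0.52 in culture (limma adjusted p = 0.255) and -0.23 in fresh cells (adjusted p = 0.524). Csnk1a1, a casein kinase, had a log2 change of 0.19 in culture (adjusted p = 0.280) and 0.02 in fresh cells (adjusted p = 0.930). Rab5a, a GTPase of early endosomes, had a log2 change of 0.21 in culture (adjusted p = 0.307) and -0.17 in fresh cells (adjusted p = 0.425). None of these 3 passed in either condition. Erp29, a chaperone of the endoplasmic reticulum, had 3624 ± 445 in cultured KO cells and 4484 ± 236 in cultured Wildtype cells (SD, n = 3 each; log2 change -0.31; adjusted p = 0.245). In fresh cells Erp29 had 1302 and 1291 in KO arrays against 1026 and 1084 in Wildtype arrays (log2 change 0.30; adjusted p = 0.328). Tubb5, a beta tubulin of microtubules, had 6414 and 6682 in fresh KO arrays against 5025 and 4378 in fresh Wildtype arrays (log2 change 0.48; adjusted p = 0.274), and had a log2 change of -0.07 in culture (adjusted p = 0.445).

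The arrays held keratinocyte keratins throughout. Some markers of activation and differentiation had positive log2 changes in culture, as Gjb2 and Gjb6 had. Krt5 and Krt14, keratins of basal cells, had log2 changes of 0.04 and 0.05 in culture (limma adjusted p = 0.842 and 0.749), and of 0.05 and 0.17 in fresh cells (adjusted p = 0.719 and 0.317). They were the only 2 of the 7 basal markers that were higher in fresh KO cells. The other 5 were lower (median log2 change of the 7 -0.14), and none was called. In culture all 6 basal markers tested were higher in KO cells, none called. The 7 basal markers summed to 190792 to 204192 in cultured KO arrays and 167147 to 204311 in cultured Wildtype arrays, and to 91284 and 91518 in fresh KO arrays against 94887 and 92183 in fresh Wildtype arrays. Of the 10 keratins listed, 8 were tested in culture, where all 8 were higher in KO cells and none was called. In fresh cells 9 of the 10 were higher, again with none called. At an unadjusted p under 0.05 there were 3 higher of 8 in culture, beside 15.6% of all probe sets, and 3 higher and 1 lower of 10 in fresh cells, beside 12.9%.

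Krt16, a keratin of activated keratinocytes, had 31062, 25969 and 24676 in cultured KO arrays against 23973, 8886 and 9133 in cultured Wildtype arrays (log2 change 1.12; limma adjusted p = 0.273). Wildtype replicate 1 stood apart from the other Wildtype arrays here as it did for Gjb2. For both genes KO replicate 1 was also the highest KO array, so the arrays numbered 1 were high in both groups. Krt6b had 12558, 12482 and 9203 in cultured KO arrays against 4629, 1790 and 1796 in cultured Wildtype arrays, without overlap (log2 change 2.20; adjusted p = 0.109). Gjb6 did not have that split: its Wildtype replicate 1 had 112. Krt6a had a log2 change of 0.12 in culture (adjusted p = 0.389) and 0.82 in fresh cells (adjusted p = 0.308), with 826 and 1300 in fresh KO arrays against 591 and 586 in fresh Wildtype arrays. Krt10, a suprabasal keratin, had a log2 change of 0.47 in culture (adjusted p = 0.191) and 0.04 in fresh cells (adjusted p = 0.737). Krt1, another, had 5.13 to 26.7 in cultured KO arrays and 4.30 to 18.7 in cultured Wildtype arrays, where its change was 0.54 (adjusted p = 0.790), and its change in fresh cells was 0.59 (adjusted p = 0.242).

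Some markers of differentiation passed the test in culture, which Gjb6 and Gjb2 did not. All 6 suprabasal markers tested had positive log2 changes in cultured KO cells (median 1.47), among them Krt1 with its low, overlapping signals. Of the 6, 2 were called, beside 0.273% of all probe sets. The called genes were Dsc1 (limma log2 change 2.51, adjusted p = 0.0358) and Ivl (2.07, adjusted p = 0.0444). Dsc1 encodes a desmosomal cadherin and Ivl encodes involucrin, a protein of the cornified envelope. The summed suprabasal signal ran from 4499 to 6870 in cultured KO arrays and from 1430 to 1717 in cultured Wildtype arrays, and in fresh cells it was 65692 and 64343 in KO arrays against 61397 and 65626 in Wildtype arrays. The fresh members went both ways, 3 with positive and 3 with negative log2 changes, none called. Lor, encoding loricrin of the cornified envelope, had 6056 and 3540 in fresh KO arrays against 7810 and 11965 in fresh Wildtype arrays (log2 change -1.06; limma adjusted p = 0.317), while its change in culture was 2.64 (adjusted p = 0.102). Lor passed without KO replicate 1 in either condition (3.11 and adjusted p = 0.0433 in culture; -1.45 and adjusted p = 0.0292 in fresh cells, with 1 KO array left). All 6 activation markers tested had positive log2 changes in cultured KO cells (median 1.48), and 2 were called, beside 0.273% of all probe sets. Those 2, S100a8 (limma log2 change 1.84, adjusted p = 0.0358) and S100a9 (2.18, adjusted p = 0.0386), encode a pair of calcium-binding alarm proteins. The summed signal of the 6 activation markers ran from 136330 to 156528 in cultured KO arrays and from 83063 to 126094 in cultured Wildtype arrays. In fresh cells all 6 again had positive log2 changes (median 0.64), none called and 3 at an unadjusted p under 0.05, S100a8 among them, beside 12.9% of all probe sets. Their fresh sum was 9867 and 10499 in KO arrays against 9032 and 8668 in Wildtype arrays. S100a8 had 93.8 and 379 in fresh KO arrays against 51.2 and 61.9 in fresh Wildtype arrays (log2 change 1.74), both Wildtype values below their array medians, so it too passed the fresh filter only through its KO arrays. S100a9 had 166 and 99.4 in fresh KO arrays against 76.8 and 54.4 in fresh Wildtype arrays (log2 change 0.99; limma adjusted p = 0.322). KO replicate 2 was the higher KO array for S100a8, as for Gjb2 and Gjb6, and the lower one for S100a9. In culture each of the 4 calls (Dsc1, Ivl, S100a8, S100a9) was lost when KO replicate 2 or 3 or Wildtype replicate 2 or 3 was left out, with adjusted p-values of at most 0.186 for Dsc1 and S100a8, 0.202 for Ivl and 0.198 for S100a9. Among the cultured KO arrays Gjb2 and Gjb6 were highest on replicate 1, as were Krt16, Krt17, Krt6a, Krt6b and Krt10. Dsc1, Ivl, Lor, S100a8 and S100a9 were lowest there, Dsc1 with 965 against 1588 and 1325. In fresh cells Lor was lower on KO replicate 2, the array on which Gjb2 and Gjb6 were higher. The part of these cell states in the connexin values was not tested.

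Markers of other cells split the 2 fresh KO arrays, on which the fresh Gjb2 and Gjb6 values rest. The summed signal of 9 hair follicle genes was 411 and 44659 in fresh KO arrays against 1424 and 616 in fresh Wildtype arrays, so KO replicate 2 stood apart, the array that also had 2211 for Gjb2 and 269 for Gjb6. Krt25, an inner root sheath keratin, had 10946 on that array and 62.3 to 282 on the other 3 fresh arrays. In culture the sum was 379 to 496 in KO arrays and 282 to 367 in Wildtype arrays. That cultured sum is almost wholly the gene Tchh, with 335 to 452 in KO arrays and 238 to 322 in Wildtype arrays. The other hair follicle genes were near the floor in culture, so the cultured sum does not measure those cells. Melanocyte markers summed to 985 and 4466 in fresh KO arrays against 673 and 548 in fresh Wildtype arrays. In culture they summed to 423, 785 and 1320 in KO arrays against 222, 481 and 264 in Wildtype arrays. Langerhans cell and myeloid markers summed to 15205 and 7235 in fresh KO arrays against 23035 and 18259 in fresh Wildtype arrays, and to 38.9 to 39.7 on all 6 cultured arrays. Fibroblast markers summed to 445 and 1344 in fresh KO arrays against 303 and 278 in fresh Wildtype arrays, and to 43.7 to 56.3 on cultured arrays. Endothelial markers were low in all groups, at most 148 in sum. The part of these cells in the fresh connexin values was not tested, and without fresh KO replicate 2 the fresh Gjb6 log2 change was 0.86.

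**Figure D4:**
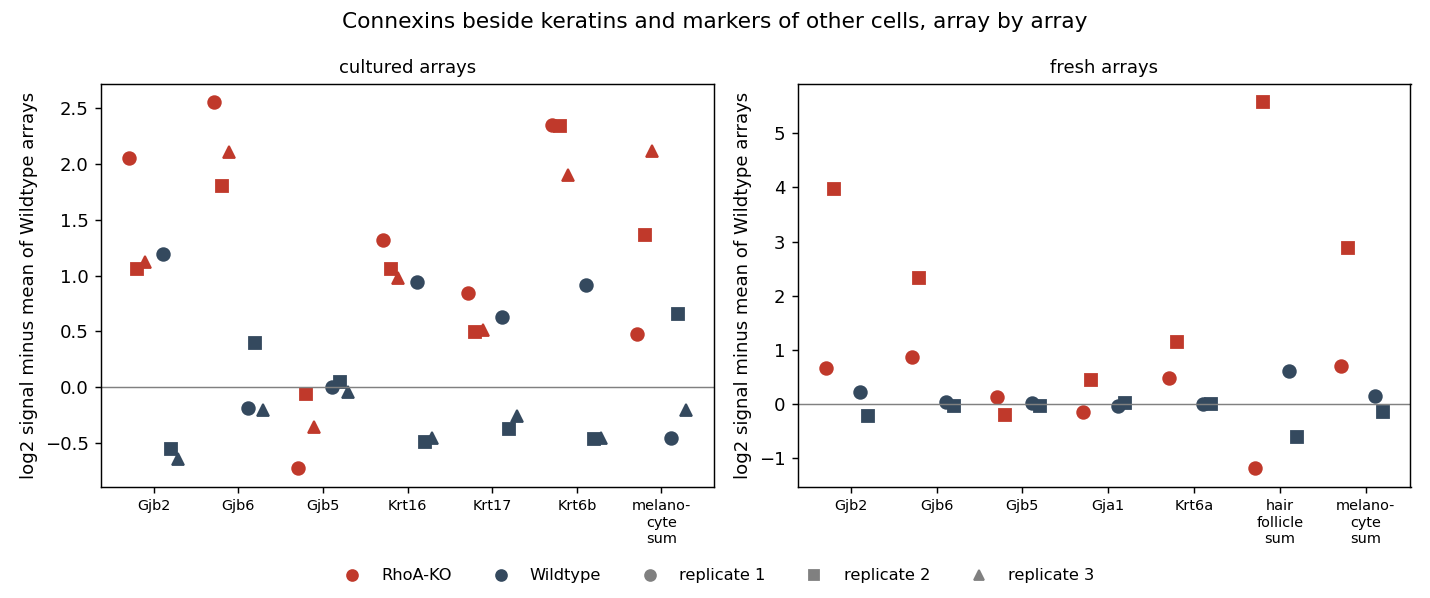
Log2 signal of each array minus the mean of the Wildtype arrays of its condition, for cultured arrays (left) and fresh arrays (right), with KO left of Wildtype for each gene or marker sum; symbols give the replicate. Wildtype replicate 1 lies high for Gjb2, Krt16, Krt17 and Krt6b in culture, and KO replicate 1 is the highest KO array for each (for Krt6b barely). Fresh KO replicate 2 lies high for Gjb2, Gjb6 and the hair follicle and melanocyte sums.

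Genes most like each connexin were taken as the 3 highest Pearson correlations of log2 signal over the 6 cultured arrays, among 10993 genes. These correlations describe 6 arrays that share the split into KO and Wildtype. The highest of many genes were picked, so large values come partly from that choice. Gjb6 was most like Maea, a ubiquitin ligase subunit (0.996), Ddx6, an RNA helicase (0.993), and Wnt5a, a secreted Wnt ligand (0.991). Wnt5a was called in culture, with 73.2 ± 3.91 in KO cells and 33.5 ± 4.16 in Wildtype cells (SD, n = 3 each; log2 change 1.13; limma adjusted p = 0.0444). In culture 0.273% of all probe sets were called. Wnt5a was picked for following Gjb6, which split KO from Wildtype on these same arrays, so its call is not separate evidence. The Wnt5a call was lost with any of the 6 arrays left out (adjusted p of at most 0.212). Gjb2 was most like Gng10, a G protein subunit (0.990), Serinc1 (0.989) and Mmachc, of cobalamin processing (0.989). Gjb5 was most like Higd1a, a mitochondrial protein (0.986), Shprh, a ubiquitin ligase (0.983), and Spg21 (0.983). Gja1 was most like Cpeb2, a translation regulator (0.976), Ppp1cb, a phosphatase catalytic subunit (0.969), and Msln, mesothelin (0.963). Gja1 itself ran only from 29182 to 32733 over the cultured arrays, and Msln had low signals of 13.9 to 20.8 there.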

How the data were processed

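The authors' deposited table gives 1 intensity per probe set and array on a linear scale. MAS5 made the signals, per the submitters' processing notes; version and scaling: not given in the sources used here. Cultured and fresh arrays appear to have been normalized separately and were fitted apart. The scale for tests was log2 without an offset. Those probe sets above the array median on at least 2 arrays of a condition were tested with limma 3.58.1 in R 4.3.3 (lmFit, eBayes with a trend, two-sided), with Benjamini-Hochberg adjustment over all of them and a threshold of 0.05. The KO effects of both conditions were compared by a two-sided t-test of their difference. Its standard error was the root of the summed squared limma standard errors, and the degrees of freedom were summed. Those p-values had their own Benjamini-Hochberg adjustment over all probe sets tested in both conditions. A gene is represented by its probe set with the highest mean log2 signal over the 10 arrays. Of 45037 probe sets, 34945 had 1 symbol, 932 several and 9160 none here. Fits were tested on simulated data with independent noise and with changes planted only in probe sets of high signal. That setting covers neither signals as low as those of Gjb6 nor shifts shared between arrays. Promoters come from RefSeq, GRCm38.p6. Precision is limited by the number of arrays.

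The members, marker lists, partner list and tests were chosen with earlier results of these data known. Named genes are the 4 connexins; the 4 other family genes with the smallest p; the 6 partners with the smallest p in culture and 3 in fresh cells; Krt5, Krt14, Krt1, Krt10, Krt6a and Krt16; and the 3 genes most correlated with each connexin. Rhoa, Cryl1, Lor, Krt6b, Krt25, Tchh, Dsc1, Ivl, S100a8 and S100a9 were named after their values were seen or for their position. Sebaceous and T cell marker sums, 2941 to 4984 and 6489 to 6831 on cultured arrays and 2329 to 2639 and 1758 to 2535 on fresh arrays, overlapped between KO and Wildtype in both conditions. In culture the T cell sum is almost wholly Cd3e, with Cd3d and Cd3g near the floor, and the sebaceous sum almost wholly Fasn, so these sums do not measure those cells.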

Additional observations from a re-analysis of the deposited data

Results flagged for a closer look

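Erp29, a chaperone, and Tubb5, a beta tubulin, are gap junction partners whose KO effect differed between culture and fresh cells by a test of the difference itself. The effect in culture minus that in fresh cells was -0.61 for Erp29 (log2 scale, SE 0.14, t-test of the difference, adjusted p = 0.0499). In culture all 3 KO arrays had less Erp29 than all 3 Wildtype arrays, and in fresh cells both KO arrays had more than both Wildtype arrays. The difference was -0.55 for Tubb5 (SE 0.10, t-test of the difference, adjusted p = 0.0203). Tubb5 had 24029, 25312 and 25136 in cultured KO arrays against 25768, 25687 and 26838 in cultured Wildtype arrays. Its fresh KO arrays had 6414 and 6682, against 5025 and 4378 in fresh Wildtype arrays. Of all probe sets tested in both conditions, 1.95% had a called difference, and neither gene was called within a condition. The Erp29 difference lost its call in 11 of 19 alternatives, among them leaving out cultured KO replicate 1 or 3, cultured Wildtype replicate 2 or 3, fresh KO replicate 2 or either fresh Wildtype array. The Tubb5 difference lost it in 3 of 19, among them leaving out fresh KO replicate 2 (adjusted p = 0.0534) or fresh Wildtype replicate 2 (adjusted p = 0.134).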

How the results depend on the processing

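The Gjb6 change in culture stayed positive in all 16 alternatives. It passed the threshold in 4: 2.16 with 1 fit over all 10 arrays (adjusted p = 0.0233), 2.06 with array weights, 2.16 with a stricter filter and 2.18 with scaling to the 75th percentile. With 1 array left out it ran from 1.96 to 2.35. The number of connexin probe sets called in culture then went to 1 in these 4 settings. The Gjb2 change in culture ran from 1.09 to 2.01 and that of Gjb5 from -0.54 to -0.21, none called. Leaving out 1 array gave Gja1 in culture -0.047 to 0.036, and scaling to the 75th percentile gave 0.011.

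Fresh values rested on single arrays. Leaving out 1 array gave -0.15 to 0.45 for Gja1, 0.67 to 3.97 for Gjb2 and -0.21 to 0.13 for Gjb5, and 0 to 2 connexin probe sets called. For Gjb6, with the filter kept (chosen after seeing the data), it gave 2.33 without KO replicate 1 and 0.86 without KO replicate 2. Where 1 KO array was left, only the Wildtype arrays gave the spread, pooled by limma over probe sets, and the lone array was assumed to vary like them. A stricter filter gave no fresh value for Gjb6. The difference between conditions ran over left-out arrays from -0.46 to 0.14 for Gja1 and from -2.56 to 0.74 for Gjb2, and was -0.17 for Gjb6 without fresh KO replicate 1.

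All probe sets called in culture numbered 547 with 1 fit, 0 at an adjusted p of 0.01, 299 with array weights, 2 with no filter, 7 with no trend, 128 with scaling to the 75th percentile and 0 to 95 with 1 array left out (0 without KO replicate 2, KO replicate 3 or Wildtype replicate 3, 1 without Wildtype replicate 2, 26 without Wildtype replicate 1 and 95 without KO replicate 1). Fresh calls numbered 447 with 1 fit and 0 to 945 with 1 array left out (945 without KO replicate 1 and 11 without KO replicate 2).

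Whether the replicate numbers pair the samples is not settled by these arrays. Deviations of same-numbered KO and Wildtype arrays correlated at 0.32, 0.08 and 0.25 in culture, and those of differently numbered arrays at -0.30 to 0.17. Cultured KO replicate 2 correlated at 0.08 with its own number and at 0.09 with Wildtype replicate 3. Both fresh pairs had -0.05, but 2 arrays of a group deviate as mirror images, so this is a single value and cannot decide. With the replicate block 17 probe sets were called in culture and 0 in fresh cells, and the Gjb6 change in culture had an adjusted p of 0.103.

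Some uncalled changes turned sign with 1 array left out. The range was -0.016 to 0.047 for Csnk1a1 in fresh cells. In culture it was -0.17 to 0.15 for Cpeb2, -0.14 to 1.24 for Krt1, -0.0027 to 0.13 for Krt14, -0.018 to 0.11 for Krt5, -0.24 to 0.058 for Msln and -0.12 to 0.075 for Ppp1cb. Array weights gave 0.028 for Cpeb2. The causes of these changes were not tested. With 2 or 3 arrays a group, intervals are wide, and near-floor signals have no order.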
